A study of Mus musculus with 16 samples.

Results

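The subunits of respiratory complexes II to V that are encoded in the nucleus were followed in mouse quadriceps across 2 diets and before or after exercise. The members were every gene whose symbol began with Uqcr, Cox4i, Cox5, Cox6, Cox7, Cox8 or Atp5, or was Sdha, Sdhb, Sdhc, Sdhd, Cyc1 or Cycs, which gave 49 of 23970 genes. By name, 4 belonged to complex II, 9 to complex III, 17 to complex IV and 15 to complex V, and Cycs encodes cytochrome c. The other 3 (Cox7a2l, Atp5s and Atp5sl) share the naming but are associated factors rather than core subunits, and they were kept apart. In all, 46 members had a mean of at least 0.5 FPKM (fragments relative to transcript length in kilobases and to the mapped fragments of the library) over the libraries and were tested, while Cox6b2, Cox7b2 and Cox8c did not.

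Polyadenylated RNA was sequenced from the quadriceps of 16 male C57BL/6NTac mice aged 16 weeks, with 4 mice in each of 4 groups. The mice ate a control diet (CON, 10% kcal from fat) or a diet high in fat (HFD, with 60% kcal as fat) for 10 weeks. Muscle was taken at rest from the pre mice (groups CON-pre and HFD-pre) and, from other animals, 3 h after treadmill running to exhaustion (groups CON-post and HFD-post). The resting mice had also been made used to the treadmill and had been fasted. Summed FPKM per library lay between 283575 and 329282, the members took between 3.38 and 4.58% of it, and the depth that low values gave lay between 0.702 and 1.12 of that of CON-pre 1. The muscle was fast-fibre tissue, since the fast myosin gene Myh4 averaged 9039 FPKM in CON-pre (SD 498, n = 4) and the slow myosin gene Myh7 35.9 FPKM (SD 18.8, n = 4).

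Electrons enter the chain at complex I or at complex II (succinate dehydrogenase, also an enzyme of the TCA cycle) and pass through complex III (the cytochrome bc1 complex) and the soluble carrier cytochrome c to complex IV (cytochrome c oxidase), which reduces oxygen. Complexes III and IV pump protons out of the matrix, and complex V (ATP synthase) lets them back through a rotor of c subunits to drive its catalytic head. Heart and skeletal muscle use their own isoforms of several small complex IV subunits (Cox6a2, Cox7a1 and Cox8b), whereas other tissues rely on Cox6a1, Cox7a2 and Cox8a.

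The promoters of these isoforms are shown because the muscle isoforms and their counterparts are set against each other in level below. RefSeq (GRCm38.p6) gave a promoter for 38 of the 49 members, 3 of them under a newer symbol, and Cox6a2 was among the 11 without one. Each stretch is the 250 bases before the start of the gene, 5′ to 3′ on the strand of the gene, with matches to the searched motifs in capitals. Cox8b lies at chr7:140900447-140900696, minus strand, Cox8a at chr19:7217617-7217866, minus strand, Cox7a1 at chr7:30183921-30184170, plus strand, Cox7a2 at chr9:79759854-79760103, minus strand and Cox6a1 at chr5:115348959-115349208, minus strand.
Cox8b: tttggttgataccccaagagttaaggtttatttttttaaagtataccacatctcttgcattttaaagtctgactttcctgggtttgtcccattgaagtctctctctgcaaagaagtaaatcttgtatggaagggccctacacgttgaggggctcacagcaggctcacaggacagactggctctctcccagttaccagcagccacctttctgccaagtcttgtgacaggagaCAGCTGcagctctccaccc
Cox8a: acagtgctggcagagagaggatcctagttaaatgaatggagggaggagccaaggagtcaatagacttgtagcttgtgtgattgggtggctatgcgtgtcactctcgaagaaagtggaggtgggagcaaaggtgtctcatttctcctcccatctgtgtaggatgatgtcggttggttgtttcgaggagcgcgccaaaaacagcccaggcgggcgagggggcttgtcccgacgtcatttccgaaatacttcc
Cox7a1: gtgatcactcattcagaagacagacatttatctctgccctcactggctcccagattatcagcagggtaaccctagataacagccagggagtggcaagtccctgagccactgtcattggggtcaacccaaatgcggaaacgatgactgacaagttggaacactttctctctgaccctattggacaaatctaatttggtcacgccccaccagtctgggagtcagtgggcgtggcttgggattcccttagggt
Cox7a2: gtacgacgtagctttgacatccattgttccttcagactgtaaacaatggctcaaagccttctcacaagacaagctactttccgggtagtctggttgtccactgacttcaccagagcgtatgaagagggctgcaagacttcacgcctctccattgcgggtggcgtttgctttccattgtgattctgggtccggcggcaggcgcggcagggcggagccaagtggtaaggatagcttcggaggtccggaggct
Cox6a1: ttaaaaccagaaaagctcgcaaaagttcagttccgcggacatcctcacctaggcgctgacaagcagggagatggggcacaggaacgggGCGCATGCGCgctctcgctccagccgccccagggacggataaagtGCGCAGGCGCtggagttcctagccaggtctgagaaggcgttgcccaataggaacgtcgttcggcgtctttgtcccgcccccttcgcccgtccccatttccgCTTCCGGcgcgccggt

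The muscle isoforms had few CpG dinucleotides in these stretches, 1 in Cox8b and 4 in Cox7a1. Their counterparts held 11 in Cox8a, 14 in Cox7a2 and 26 in Cox6a1, beside a median of 14 over the members and 6 over all promoters in the table. A member with more than 1 promoter entered that median with its highest count, whereas all promoters were counted singly, so the 2 medians are not quite alike. The Cox6a1 stretch held 2 matches to the NRF1 motif (GCGC, any base, T, then GCGC, read on either strand) and 1 to the ETS motif CCGGAAG, which appears there on the opposite strand. The Cox8b stretch held the E-box CAGCTG, and no motif searched was found in the Cox8a, Cox7a1 or Cox7a2 stretches.

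Over the 38 members, the NRF1 motif was present in 7 (18.4%, against 4.23% of 27025 genes): Sdha, Sdhd, Cox6a1, Atp5c1, Atp5g2, Atp5h and Atp5k. The ETS motif, the site type read by GABP, was present in 9 (23.7% against 7.83%). The estrogen-related receptor motif TCAAGGTCA was found in Atp5g3 only among the members (2.63% against 0.422%), and the YY1 motif AAGATGGC in Atp5j and Atp5sl (5.26% against 1.83%). The E-box was found in Atp5b and Cox8b (5.26% against 14.7%) and the MEF2 motif (CTA and TAG with 4 bases between them) in Cox5b (2.63% against 3.70%). All motifs were searched on both strands, and these shares describe letters in a window, with no test. Both the NRF1 and the ETS letters hold CpG, in which the stretches of the members were richer than promoters at large. Genes with promoters of like CpG content were not set beside them. The NRF1 and ETS motifs occurred together in Sdhd, Cox6a1 and Atp5h.

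By mean level over the 16 libraries, which FPKM scales for length, the members ran from 945 FPKM for Atp5b to 0 for Cox8c. The 4 subunits of complex II were the most even, from 274 FPKM for Sdhb, the iron-sulphur subunit, to 132 FPKM for Sdhd, a membrane anchor, a 2.08-fold range. The 9 genes of complex III spanned 2.68-fold, from 380 FPKM for Uqcrq to 142 FPKM for Uqcr11, both small accessory subunits. Cycs was at 50.3 FPKM, below every member of complexes II and III.

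Complexes IV and V were less even. In complex IV, Cox6a2 was at 776 FPKM, and Cox4i2, the isoform known from lung and from low oxygen, at 1.45 FPKM, a 535-fold range, with 9 of 14 tested members at 100 FPKM or more. In complex V, Atp5b, the catalytic beta subunit, was at 945 FPKM, and Atp5g2, 1 of 3 genes for the same c subunit, at 23.0 FPKM, a 41.2-fold range, with 12 of 15 members at 100 FPKM or more. The median over members was 189 FPKM in complex II, 191 FPKM in complex III, 240 FPKM in complex IV and 287 FPKM in complex V. These medians were not tested against each other, because their members differ within a complex by more than the medians do.

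**Figure D1:**
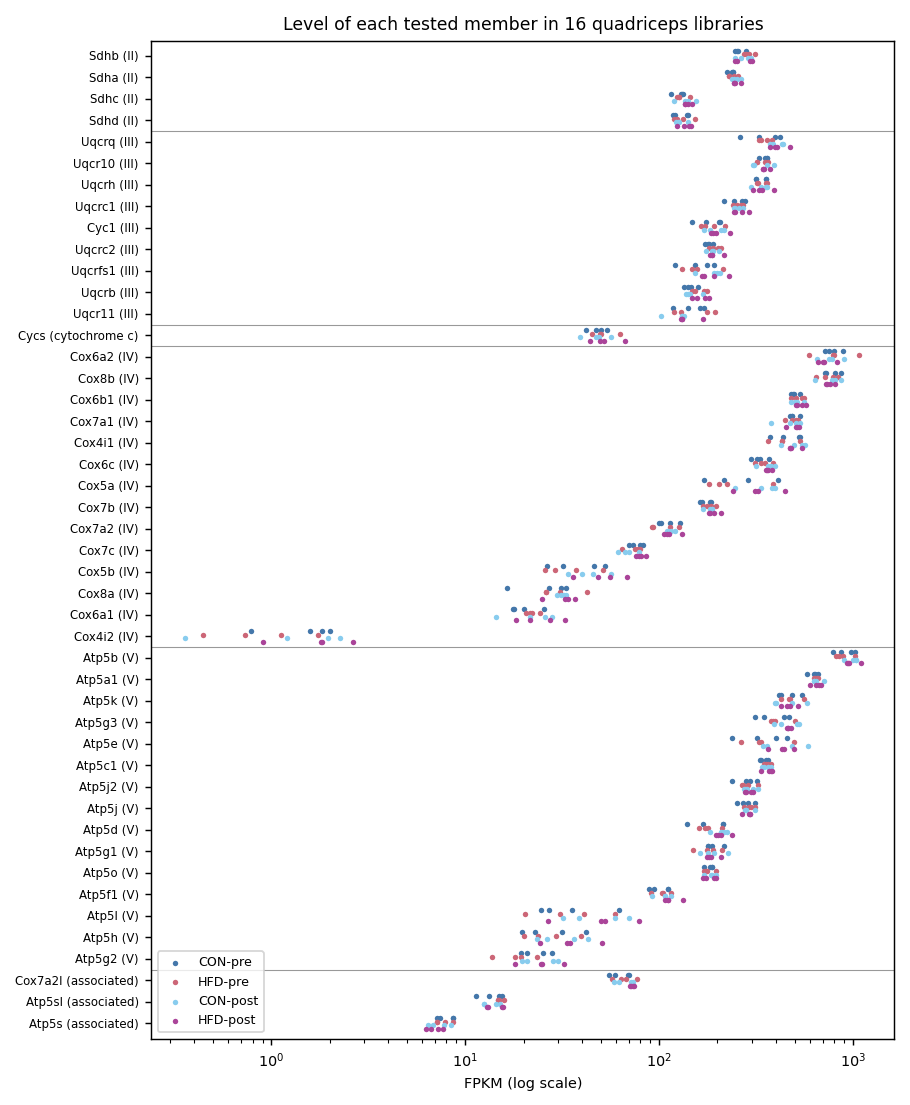
FPKM on a log scale of each of the 46 tested members in each of the 16 libraries, 1 point a library, coloured by group and ordered by mean level within each complex. The points of a member from the 4 groups lie over each other, while members differ from 945 FPKM (Atp5b) to 1.45 FPKM (Cox4i2) in mean.

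The untested members are isoforms known from testis. Cox8c was listed at 0 in all 16 libraries, Cox7b2 was above 0 in CON-post 2 only (0.261 FPKM), and Cox6b2 reached at most 0.617 FPKM (CON-pre 1). An exact 0 in such a table can be a failed estimate.

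The muscle isoforms made up most of their pairs in every library. Cox6a2 was at 752, 886, 802 and 715 FPKM in CON-pre and at 792, 1074, 802 and 594 FPKM in HFD-pre. After exercise it was at 777, 656, 752 and 900 FPKM in CON-post and at 710, 660, 705 and 832 FPKM in HFD-post. Cox6a1 stayed between 14.3 FPKM (CON-post 1) and 32.6 FPKM (HFD-post 2). Thus Cox6a2 held 97.1% of the summed FPKM of the pair on average, between 95.3 and 98.2% over the libraries, and its mean was 34.6 times that of Cox6a1. The share was 97.5% ± 0.492 in CON-pre, 97.3% ± 0.597 in HFD-pre, 97.2% ± 0.764 in CON-post and 96.7% ± 0.951 in HFD-post (SD, n = 4), and the groups overlapped.

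Cox8b was as dominant. Its level was 871, 714, 806 and 729 FPKM in CON-pre and at 835, 790, 719 and 646 FPKM in HFD-pre. After exercise it was at 639, 784, 866 and 810 FPKM in CON-post and at 809, 731, 725 and 764 FPKM in HFD-post. Cox8a lay between 16.4 FPKM (CON-pre 2) and 42.4 FPKM (HFD-pre 4), so Cox8b held 96.1% of the pair, between 93.8 and 97.8%. Cox7a1 held a smaller share, 81.4% on average and between 77.3 and 84.7%, because Cox7a2 was itself at 112 FPKM. Cox7a1 was at 484, 471, 533 and 483 FPKM in CON-pre and at 488, 509, 446 and 522 FPKM in HFD-pre. After exercise it was at 380, 507, 530 and 474 FPKM in CON-post and at 526, 507, 449 and 517 FPKM in HFD-post, and all 4 groups overlapped. Cox4i1, the usual isoform of the subunit that binds ATP, took 99.7% of its pair with Cox4i2, between 99.5 and 99.9%.

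The c subunit of ATP synthase comes from 3 genes whose mature proteins are the same, since they differ in the import peptide. Atp5g3 gave 67.2% of their summed FPKM, Atp5g1 29.2% and Atp5g2 3.57%, in that order in all 4 groups with no overlap between genes. The Atp5g3 share was 64.4% ± 2.98 in CON-pre, 67.3% ± 3.84 in HFD-pre, 68.3% ± 2.43 in CON-post and 68.7% ± 1.55 in HFD-post (SD, n = 4). The libraries of CON-pre (60.9 to 67.1%) overlapped those of each other group. How reads shared by the 3 genes were divided between them is part of the authors' estimate, so these shares are uncertain.

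**Figure D2:**
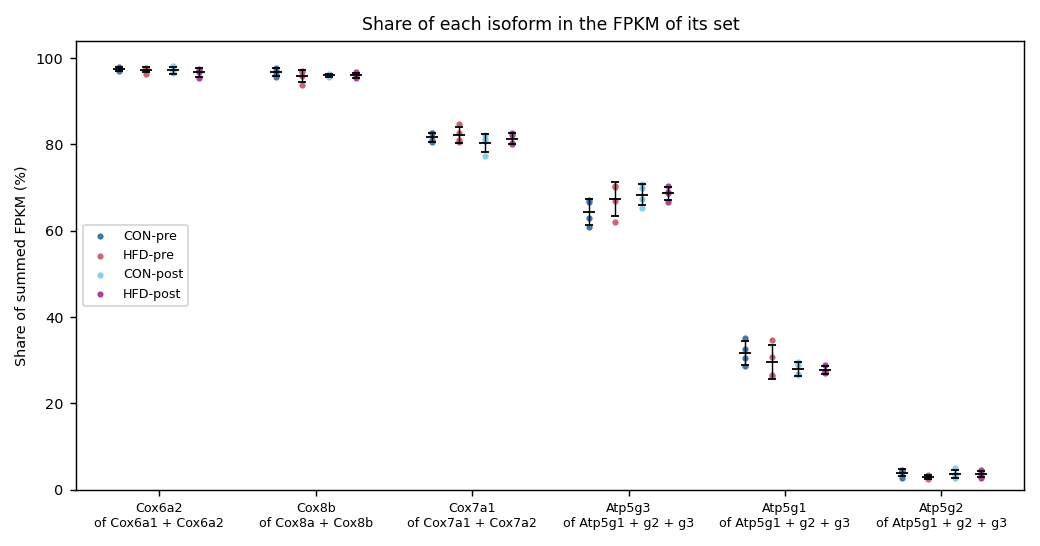
Share (%) of an isoform in the summed FPKM of its set, 1 point a library, with the mean and SD of each group of 4 as bars, groups coloured and side by side. Cox6a2 and Cox8b sit above 93% in all libraries and Cox7a1 between 77.3 and 84.7%, with the 4 groups overlapping in each set.

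The question of HFD under basal conditions was whether the subunits differed between HFD-pre and CON-pre. No member was a DEG (limma, adjusted p under 0.05), against 0.346% of the 11256 genes tested, and none had an unadjusted p under 0.05 (8.25% of all genes). The lowest adjusted p among the members was 0.643, for Sdhb. Sdhb was at 248, 256, 279 and 253 FPKM in CON-pre and at 290, 313, 279 and 274 FPKM in HFD-pre. Only CON-pre 3 and HFD-pre 3 and 4 kept the groups from separating, and the log2 difference was 0.16 (SE 0.081, unadjusted p = 0.0692).

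Next by p among those higher was Uqcrb, a small subunit near the quinone site of complex III. It was at 134, 160, 140 and 145 FPKM in CON-pre and at 176, 153, 147 and 171 FPKM in HFD-pre, a log2 difference of 0.16 (SE 0.087, adjusted p = 0.672). Uqcrc2, a core subunit of complex III, was at 180 ± 7.40 in CON-pre against 195 ± 12.5 in HFD-pre (FPKM, SD, n = 4). The groups overlapped for both genes.

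Among those lower in HFD-pre, Atp5g2 was at 25.2, 20.9, 19.4 and 27.9 FPKM in CON-pre and at 19.5, 13.7, 18.0 and 23.5 FPKM in HFD-pre, a log2 difference of -0.32 (SE 0.190, adjusted p = 0.708). Cox4i2 was at 1.55 ± 0.537 in CON-pre against 1.01 ± 0.563 in HFD-pre, and Cox4i1 at 466 ± 76.1 and 439 ± 69.7 FPKM (SD, n = 4). All 3 overlapped between the groups. No member at all had groups that did not overlap, against 5.62% of all genes.

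By complex, the median log2 difference of HFD-pre from CON-pre was 0.03 in complex II, 0.04 in complex III, -0.02 in complex IV and 0.01 in complex V. Without CON-pre 2 the medians went to -0.01 in complex II, -0.03 in complex III and -0.06 in complex V, without HFD-pre 4 they also fell below 0 in these complexes, and division by the FPKM sum took that of complex IV to 0.06. All 4 complex II genes and 8 of 9 complex III genes lay above 0, as did 6 of 14 in complex IV and 9 of 15 in complex V. Over the 46 members the median was 0.02, with 30 above 0, while over all genes it was -0.03, with 39.6% above 0. For 39 members the 95% interval of the difference lay within a 1.5-fold change either way (83.2% of all genes did so). The 7 members with wider intervals were Cox4i2, Cox5a, Cox5b, Cox8a, Atp5g2, Atp5h and Atp5l, for which a larger difference than that could not be set aside.

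Exercise on the control diet gave a similar picture. Between CON-post and CON-pre no member was a DEG, against 1.11% of all genes, none had an unadjusted p under 0.05 (11.1% of all genes) and none had groups that did not overlap (5.82% of all genes). The lowest adjusted p was 0.481, for Atp5g3. Its level was 348, 312, 469 and 439 FPKM in CON-pre and 393, 528, 514 and 425 FPKM in CON-post, a log2 difference of 0.25 (SE 0.127, unadjusted p = 0.0627). Uqcrq was at 327, 261, 420 and 398 FPKM in CON-pre and at 386, 434, 433 and 374 FPKM in CON-post, a log2 difference of 0.23 (SE 0.121, adjusted p = 0.508). In both genes the low CON-pre values came from libraries 1 and 2, and the upper CON-pre libraries lay within the range of CON-post. Cox6c was at 330 ± 30.3 FPKM in CON-pre and 364 ± 35.6 FPKM in CON-post (SD, n = 4).

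Of those lower after exercise, Cox7c was at 79.5, 69.7, 82.2 and 73.5 FPKM in CON-pre and at 61.5, 79.2, 70.2 and 66.9 FPKM in CON-post (adjusted p = 0.607). Uqcr11 was at 162, 170, 141 and 118 FPKM in CON-pre and at 102, 131, 134 and 131 FPKM in CON-post, a log2 difference of -0.24 (SE 0.155, adjusted p = 0.618). Atp5s was at 7.96 ± 0.803 FPKM in CON-pre and 7.37 ± 0.899 FPKM in CON-post (SD, n = 4). The groups overlapped for each, and Uqcr11 varied as much within CON-pre as between the groups.

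On the high-fat diet, HFD-post against HFD-pre, no member was a DEG either (0.542% of all genes were), and none had groups that did not overlap (6.81% of all genes). An unadjusted p under 0.05 was reached by 2 of 46 members, against 11.7% of all genes. Cox5b, a zinc-binding complex IV subunit, was at 37.2, 25.7, 29.1 and 51.5 FPKM in HFD-pre and at 68.4, 56.1, 48.3 and 36.2 FPKM in HFD-post, a log2 difference of 0.55 (SE 0.248, unadjusted p = 0.0415, adjusted p = 0.395). HFD-pre 4 was above HFD-post 3 and 4, so the groups overlapped. Atp5g2 was at 32.4, 24.7, 24.9 and 18.0 FPKM in HFD-post, beside the HFD-pre values given above, a log2 difference of 0.41 (SE 0.190, unadjusted p = 0.0483, adjusted p = 0.419).

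Uqcrq was at 358, 329, 337 and 381 FPKM in HFD-pre and at 476, 404, 375 and 395 FPKM in HFD-post, where only HFD-pre 4 and HFD-post 3 crossed. Its log2 difference was 0.23 (SE 0.121, adjusted p = 0.489). The 3 with the lowest p among those lower were Atp5s (log2 difference -0.14), Sdhb (-0.09) and Cox6a2 (-0.14), with adjusted p between 0.625 and 0.753. Sdhb was at 302, 246, 251 and 294 FPKM in HFD-post, a range that held all of HFD-pre but 1 library.

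After exercise, HFD-post was compared with CON-post for the effect of diet. No member was a DEG, against 0.151% of all genes, none had groups that did not overlap (3.16% of all genes), and 1 had an unadjusted p under 0.05 (6.29% of all genes). That was Cox7c, a small hydrophobic complex IV subunit, at the CON-post values given above and at 85.4, 80.2, 75.9 and 78.4 FPKM in HFD-post. CON-post 2 lay within HFD-post and the other 3 CON-post libraries below it, and the log2 difference was 0.21 (SE 0.086, unadjusted p = 0.0289, adjusted p = 0.720). Uqcrb was at 169, 141, 138 and 145 FPKM in CON-post and at 182, 148, 173 and 158 FPKM in HFD-post (log2 difference 0.16, adjusted p = 0.897). Atp5f1, the b subunit of the ATP synthase stalk, was at 106 ± 9.71 FPKM in CON-post and 115 ± 11.5 FPKM in HFD-post (SD, n = 4). The lowest p among those lower came from Atp5s, Cox6a2 and Atp5j2, with log2 differences of -0.08, -0.08 and -0.03.

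The complexes were set beside each other by their median log2 difference in the same comparisons, with no test between complexes. For exercise on CON the median log2 difference was 0.08 in complex II, 0.03 in complex III, 0.05 in complex IV and 0.07 in complex V. For exercise on HFD it was 0.06, 0.03, 0.10 and 0.13 in the same order. For diet after exercise it was 0.02, 0.04, 0.04 and 0.01, and all 9 complex III genes lay above 0, by between 0.01 and 0.16. After quantile normalization the medians on CON went to -0.02 in complex III and -0.00074 in complex IV, and those on HFD to -0.02 in complex II and -0.03 in complex III. For diet after exercise the medians of complexes II, IV and V went below 0 without CON-post 1, that of complex III without HFD-post 1, and that of complex V also without HFD-post 1 and, to -0.04, without CON-post 4. Cycs differed by -0.01, 0.02 and 0.14 in these 3 comparisons. Over libraries, the median FPKM of complex IV members was 211 ± 39.4 in CON-pre, 215 ± 48.3 in HFD-pre, 249 ± 23.7 in CON-post and 251 ± 30.8 in HFD-post, and that of complex V was 277 ± 31.4, 285 ± 21.1, 286 ± 14.2 and 283 ± 12.2 (SD, n = 4). For each complex the library medians of the groups overlapped in all 4 comparisons of 2 groups.

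**Figure D3:**
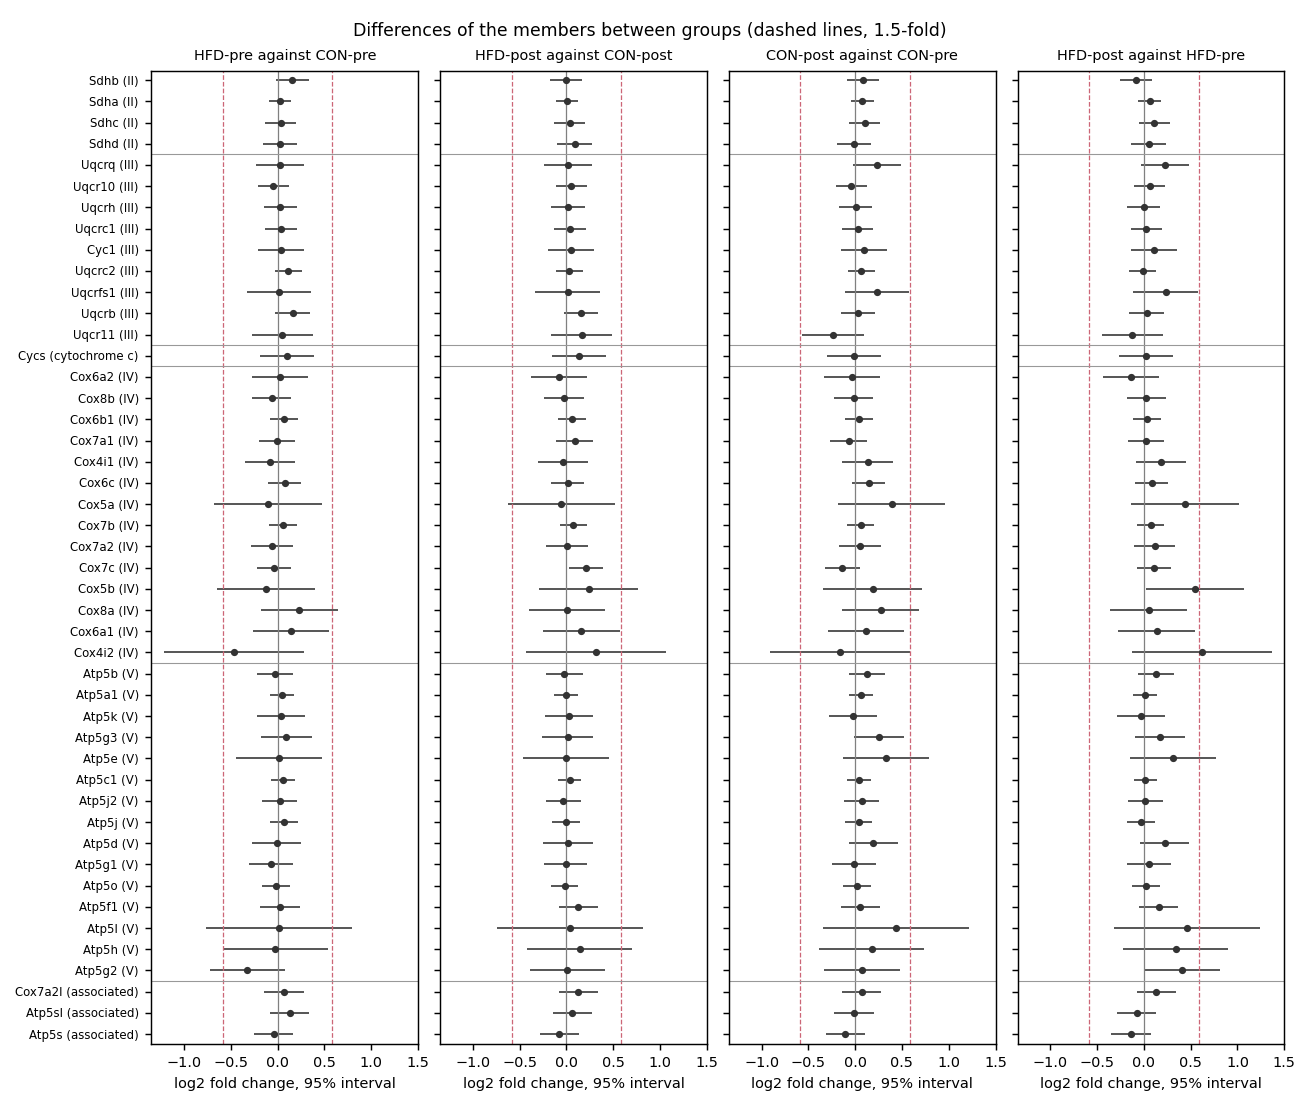
Log2 fold change with its 95% interval (from the moderated standard error) of each tested member in the 4 comparisons of 2 groups, with dashed lines at a 1.5-fold change. The points lie between -0.47 (Cox4i2, HFD-pre against CON-pre) and 0.62 (Cox4i2, HFD-post against HFD-pre), and the widest intervals belong to Cox4i2 and Atp5l.

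In both exercise comparisons most members lay above 0. On CON 33 of 46 members lay above 0 (median 0.06, beside -0.01 over all genes), and on HFD 37 of 46 (median 0.06, beside 0.04 over all genes, of which 59.3% lay above 0). The median on CON went to -0.0080 after quantile normalization and to 0.02 without CON-pre 2, and that on HFD to 0.01 after quantile normalization, so the direction on CON depends on the scaling. These comparisons share no library, and 29 members (63.0%) were above 0 in both, 5 below 0 in both and 12 opposite, whereas 36.5% of all genes were above 0 in both. Members vary together from library to library, as described below, so their number does not act as a number of independent replicates. The 95% interval lay within 1.5-fold for 39 members on CON, for 39 on HFD and for 41 in HFD-post against CON-post (80.4, 80.8 and 84.0% of all genes).

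No member passed the test of whether the effect of exercise differed between the diets (adjusted p = 1.00 for the interaction, limma). The lowest unadjusted p among the members was 0.0604, for Cox7c (log2 difference between the effects 0.25), and the largest difference was 0.79, for Cox4i2 (95% interval -0.27 to 1.85). No gene of the 11256 passed for the interaction (0%), 356 had an unadjusted p under 0.05 (3.16%), and none of these was a member. The interval of this difference was wider than that of a single comparison, and it stayed within 1.5-fold for 37 of 46 members (64.4% of all genes). For the other 9 a larger difference in response could not be set aside, and none of this shows that the responses were alike.

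Averaging over the diets, a comparison added after the data had been seen, gave the narrowest view of exercise, with 8 post against 8 pre libraries. No member was a DEG here either, against 3.86% of all genes, and 4 of 46 had an unadjusted p under 0.05, against 18.5% of all genes. These were Uqcrq (log2 difference 0.23, SE 0.086, adjusted p = 0.162), Atp5g3 (0.21, SE 0.090, adjusted p = 0.215), Atp5d (0.21, SE 0.088, adjusted p = 0.219) and Cox5a (0.42, SE 0.191, adjusted p = 0.254). All 4 were higher after exercise in both diets, but none passed. The interval lay within 1.5-fold for 40 of 46 members (90.7% of all genes). By complex the median log2 difference was 0.04 in complex II (3 of 4 genes above 0) and 0.03 in complex III (8 of 9). It was 0.10 in complex IV (11 of 14) and 0.11 in complex V (14 of 15), not tested against each other. Over the alternative fits these medians ran from -0.02 to 0.07, -0.04 to 0.04, 0.02 to 0.13 and 0.04 to 0.14, in that order. For HFD against CON over both states, 0 members were DEG (0.959% of all genes) and 1 had an unadjusted p under 0.05 (10.4% of all genes), Uqcrb, with a log2 difference of 0.16 (SE 0.061, adjusted p = 0.341). All 9 complex III and all 4 complex II genes lay above 0 in that comparison, each with a median of 0.04, as did 8 of 14 complex IV genes (median 0.04) and 10 of 15 complex V genes (median 0.02). The interval lay within 1.5-fold for 45 of 46 members (93.1% of all genes).

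Some of the subunits that carry the catalysis or the electrons, picked for that role after the values were seen, are given next with the limits on their changes. Sdha was at 238, 224, 240 and 240 FPKM in CON-pre and at 243, 229, 230.5 and 254 FPKM in HFD-pre, beside 249 ± 11.4 in CON-post and 249 ± 9.97 in HFD-post (FPKM, SD, n = 4). Over both diets, Sdha after exercise was 1.05 times its level before (95% interval 0.990 to 1.11), and over both states HFD was 1.01 times CON (0.951 to 1.07). Atp5b was at 865, 786, 982 and 1022 FPKM in CON-pre and at 886, 820, 850 and 1025 FPKM in HFD-pre, and after exercise at 999, 1036, 1034 and 902 FPKM in CON-post and at 1096, 940, 952 and 928 FPKM in HFD-post. The highest library of each pre group lay within the range of the post group of its diet, and the fold after exercise was 1.09 (0.993 to 1.20), with 0.983 (0.894 to 1.08) for HFD against CON. For Atp5a1, which forms the head with Atp5b, these folds were 1.03 (0.964 to 1.09) and 1.01 (0.952 to 1.08), and for Cyc1, the cytochrome that hands electrons to cytochrome c, 1.07 (0.950 to 1.21) and 1.03 (0.912 to 1.16). Uqcrfs1, the Rieske protein of complex III, had larger folds after exercise, given here within each diet. They were 1.177 on CON (0.927 to 1.49) and 1.175 on HFD (0.926 to 1.49), with 1.01 (0.853 to 1.195) for HFD against CON. All of these intervals held 1.

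Libraries of the same group differed from each other more than groups did for several members. The within-group SD on the log2 scale was smallest for Sdha, the flavoprotein of complex II (0.061), Atp5c1, the gamma subunit in the shaft of ATP synthase (0.069), and Atp5a1, the alpha subunit (0.072), all chosen after their values were seen, as were Cox5a and the genes set beside it below. Its median was 0.11 in complex II, 0.12 in complex III, 0.18 in complex IV and 0.17 in complex V. At a mean of at least 100 FPKM it was 0.13 over 34 members and 0.12 over all 320 genes of that level. Among these 34 it was largest for Cox5a, a nuclear-encoded subunit of complex IV, at 0.44.

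Cox5a was at 215, 169, 286 and 408 FPKM in CON-pre and at 205, 180, 223 and 388 FPKM in HFD-pre. After exercise it was at 396, 383, 337 and 247 FPKM in CON-post and at 447, 326, 311 and 240 FPKM in HFD-post. In both pre groups library 4 was the highest and library 2 the lowest, and in both post groups library 1 was the highest and library 4 the lowest. Atp5l, the g subunit of ATP synthase, went the same way, at 27.1, 24.7, 35.7 and 62.0 FPKM in CON-pre and at 41.2, 20.3, 30.8 and 59.0 FPKM in HFD-pre. After exercise it was at 69.7, 59.1, 38.4 and 32.1 FPKM in CON-post and at 78.7, 50.4, 52.5 and 26.8 FPKM in HFD-post. The post mean of Cox5a exceeded the pre mean in both diets, by a log2 difference of 0.39 (SE 0.270, adjusted p = 0.645) on CON and 0.44 (SE 0.270, adjusted p = 0.559) on HFD, within the spread just given.

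After the group means were taken out, 10 of the other 45 members followed Cox5a with a Pearson r over 0.8 across the 16 libraries (22.2%, against 1.68% of all genes): Uqcrfs1, Atp5b, Atp5h, Cox5b, Atp5l, Atp5f1, Cox4i1, Atp5d, Cyc1 and Atp5e. They come from complexes III, IV and V, and none from complex II. Their r ran from 0.819 (Atp5e) to 0.947 (Uqcrfs1, the Rieske protein of complex III), with Spearman's rho from 0.803 to 0.944, and without CON-pre 4 and HFD-pre 4, the libraries farthest from the median of Cox5a, r ran from 0.707 to 0.925. Uqcr11 (r = -0.805, rho = -0.771) and Cox6a2 (r = -0.761, rho = -0.706) went the other way, with r of -0.683 and -0.657 without those libraries. They were the 2 of the other 45 members with r under -0.7, beside 308 of 11255 genes. These values describe 16 libraries that share scaling and depth, and were given no p because the genes were picked by r. The leading component of the deviations held 60.8% of the variance of the 46 members, with 40 members loading with Cox5a and 6 against it. Members were not scaled to equal variance for it, so those with the largest spread weigh most. The median r with Cox5a was 0.533 over the other 45 members, beside 0.0256 over all genes.

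Other measures of the libraries moved in part with this pattern. CON-pre 2 and HFD-pre 2, the lowest in Cox5a in their groups, also had the lowest relative depth there (0.702 and 0.763), and CON-pre 4 and HFD-pre 4 the highest (1.10 and 1.12), as had HFD-post 1 in its group (1.04), whereas in CON-post library 4 was the deepest (1.05) and the lowest in Cox5a. The summed FPKM of slow-fibre markers, 9 of 10 of which passed the filter, ranged from 220 to 737 in CON-pre, from 208 to 535 in HFD-pre, from 200 to 733 in CON-post and from 203 to 780 in HFD-post. CON-pre 4, CON-post 1 and HFD-post 1, each the highest of its group in Cox5a, had the highest of these sums, but in HFD-pre library 3 did. The lowest sum fell on the library lowest in Cox5a in HFD-post only (HFD-post 4, 203). Elsewhere it fell on CON-pre 1 (220), HFD-pre 1 (208) and CON-post 2 (200), and CON-post 2 had Cox5a at 383 FPKM. With a slow-fibre score as a covariate 0 members were called in each of the 7 contrasts, but the part of these markers and of depth in the spread between libraries was not tested, and in whole muscle fewer cells of a type and less RNA per cell cannot be told apart.

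**Figure D4:**
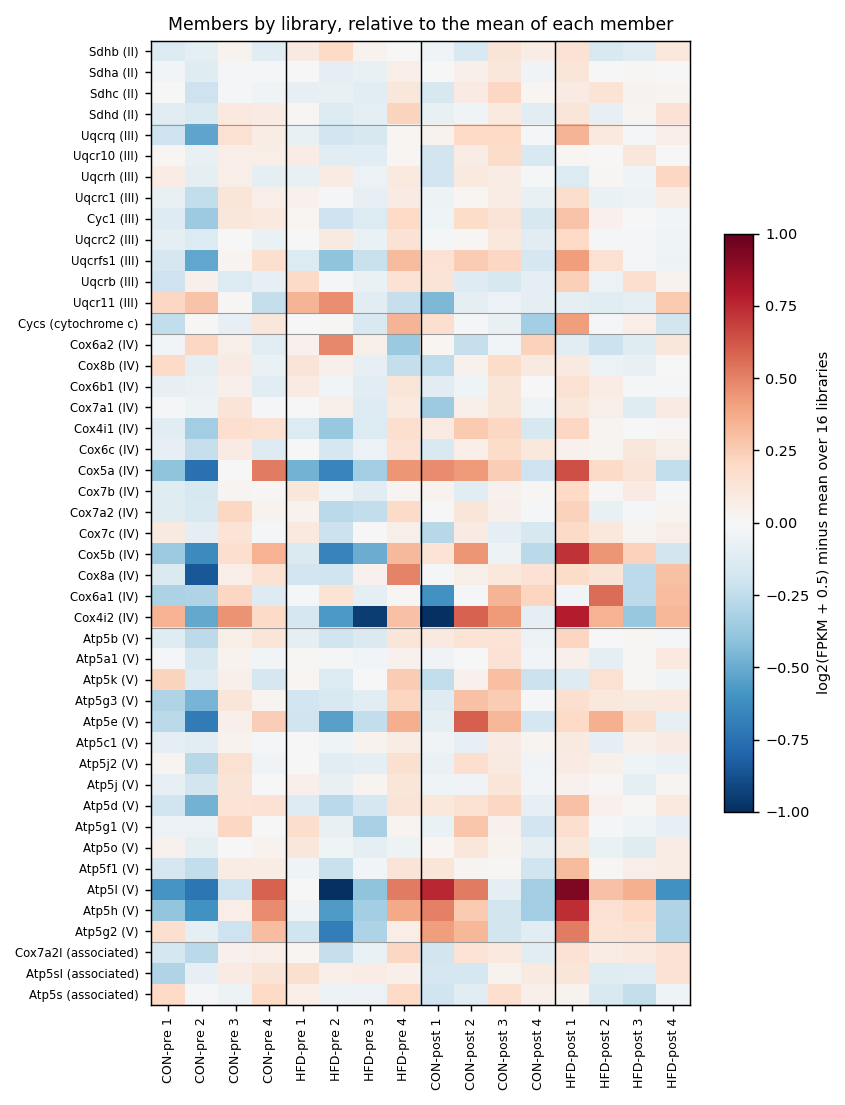
Log2(FPKM + 0.5) of each tested member (rows, by complex) in each library (columns, by group) after its mean over the 16 libraries was taken off, with blue below and red above that mean and values beyond 1 drawn in the end colours. Cox5a, Cox5b, Atp5l and Atp5h change together between libraries of 1 group, red in CON-pre 4, HFD-pre 4 and HFD-post 1 and blue in CON-pre 2 and HFD-pre 2, while Sdha and Atp5a1 stay near white.

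The genes that build or control these complexes were counted beside the members. Of 35 tested assembly factors, none was a DEG in the 4 comparisons of 2 groups or the interaction, with medians from -0.04 to 0.03, and over both diets Coa7, a complex IV assembly factor, fell after exercise by 0.30 on the log2 scale (SE 0.075, adjusted p = 0.0337). That was 1 of 35 called, beside 3.86% of all genes in that comparison. Coa7 was at 5.98 ± 0.243 FPKM in CON-pre, 5.68 ± 0.361 in HFD-pre, 4.64 ± 0.840 in CON-post and 4.70 ± 0.503 in HFD-post (SD, n = 4). Of 4 tested partners whose symbols the rule does not match, none was a DEG. The lowest p was that of Usmg5, a small ATP synthase subunit, at 19.1 ± 3.82 FPKM in CON-pre, 16.1 ± 4.24 in HFD-pre, 14.8 ± 3.86 in CON-post and 23.3 ± 3.10 in HFD-post (SD, n = 4), with a log2 difference of HFD-post from CON-post of 0.66 (SE 0.195, adjusted p = 0.344). Its log2 difference of HFD-post from HFD-pre was 0.54 (adjusted p = 0.277), that of CON-post from CON-pre -0.37 (adjusted p = 0.513), and the interaction 0.91 (SE 0.275, unadjusted p = 0.00446, adjusted p = 1.00). The subunits encoded by mitochondrial DNA are not analysed here.

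Of 15 regulators, only Ppargc1a (PGC-1 alpha, a coactivator of mitochondrial genes) was a DEG. It was at 6.60 ± 0.365 FPKM in CON-pre, 4.70 ± 0.345 in HFD-pre, 28.3 ± 7.998 in CON-post and 22.3 ± 5.40 in HFD-post (SD, n = 4). It rose after exercise by 1.98 on the log2 scale on CON (SE 0.187, adjusted p = 4.38e-05) and by 2.10 on HFD (SE 0.187, adjusted p = 2.87e-05), in the same libraries in which 0 of 46 members were called. Perm1, a muscle regulator induced by PGC-1, was at 43.5 ± 5.45 FPKM in CON-pre and 56.5 ± 3.43 FPKM in CON-post (SD, n = 4), a log2 difference of 0.38 (SE 0.092, adjusted p = 0.0637). Nrf1 and Esrra, which read motifs searched above, differed by -0.05 and 0.13 on CON and by -0.12 and 0.14 on HFD, with adjusted p of at least 0.702.

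Markers of other cells and fibres were counted in the same comparisons. Slow-fibre (9 tested), macrophage (5), fibroblast (4) and blood (6) markers held no DEG in any. Of the slow-fibre markers 8 of 9 were lower in HFD-pre than in CON-pre (median log2 difference -0.50) and in HFD-post than in CON-post (-0.32), 6 were higher after exercise on CON (0.02), and all 9 were higher after exercise on HFD (0.25), none with an unadjusted p under 0.05. Among 11 fast-fibre markers, Casq1 fell after exercise over both diets by 0.32 on the log2 scale (SE 0.059, adjusted p = 0.00546). In HFD-pre against CON-pre 9 of the 11 were lower, with a median log2 difference of -0.18 and none called, and over both states 9 were lower (median -0.15), 6 of them at an unadjusted p under 0.05. The summed FPKM of these markers lay between 70362 and 78264 in CON-pre. All libraries of HFD-pre (62274 to 69831), CON-post (64124 to 69675) and HFD-post (53733 to 68824) lay below that. Such a sum is weighted towards the most abundant markers. In the mean of their centred log2 values, where each marker counts alike, CON-pre overlapped every other group. The lowest CON-pre library scored 0.017, under the top library of HFD-pre (0.056), HFD-post (0.053) and CON-post (0.029). Of 7 adipocyte markers, Lep was up-regulated and Cfd down-regulated by HFD before exercise (log2 differences 2.34 and -1.97, adjusted p = 0.0138 and 0.00440) and after it (2.74 and -1.58, adjusted p = 0.00893 and 0.0253). Of 5 endothelial markers, Pecam1 was up-regulated after exercise over both diets by 0.36 (SE 0.056, adjusted p = 0.00141) and on HFD by 0.39 (SE 0.079, adjusted p = 0.0347). On CON its log2 difference was 0.32 (SE 0.079, adjusted p = 0.0660). The endothelial list did not move as 1, with 2 markers higher and 3 lower over both diets (median log2 difference -0.0097). On HFD 1 was higher and 4 were lower (median -0.12), and on CON 4 were higher and 1 was lower (median 0.10). The part of all these markers in the values of the members was not tested.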

How the data were processed

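RNA from quadriceps of 16 mice (4 a group) was sequenced by the authors with stranded mRNA libraries on a HiSeq2500, aligned with TopHat and quantified with Cufflinks. The deposited values are FPKM, already scaled by the authors for transcript length and library size, so no count test was used. They do not hold the number of reads behind each library, and only a relative depth was taken, from genes at or under 0.1 FPKM. The submitters' notes name the genome build mm9, with no versions of the tools. Of 24487 entries, 27 with names turned into dates were left out (0.0771% of FPKM) and 260 symbols in several entries were summed, none of them a member, and 0 sample columns were left unused. The filter (a mean of 0.5 FPKM or more) left 11256 genes to test.

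All 16 libraries entered 1 limma fit (version 3.58.1, R 4.3.3, trended variance) of log2(FPKM + 0.5) with the 4 groups as the design, and p-values were adjusted over all genes tested after Benjamini and Hochberg. Fold changes are on that scale and understate those of low genes. Diet was compared within each state, exercise within each diet, and their interaction was tested, and 2 contrasts averaged over diet or state, as well as a replicate block within each state, were added once the data had been examined. Exact two-sided permutation tests of 4 against 4 libraries have 70 splits and a smallest p of 0.0286, which no member can reach while its groups overlap. Named members were those with the 3 lowest p in each direction of the comparisons of 2 groups, the isoform sets, and the highest and lowest of each complex. Other genes were counted in 10 lists (assembly factors, partners, regulators, and slow-fibre, fast-fibre, adipocyte, endothelial, macrophage, fibroblast and blood markers). The members and lists were chosen with earlier results of these data known. Promoters and motifs come from RefSeq GRCm38.p6 and no coordinates of the 2 builds were combined. The code was tested on simulated data. Alternatives were pseudocounts of 0.1 and 1, no filter or a mean of at least 1 FPKM, summed symbols left out, 4 other scalings, only the groups compared, no trend, array weights, a slow-fibre covariate, a replicate block, other thresholds and 16 fits without 1 library. Other software was matplotlib 3.10.9, scipy 1.17.1, pandas 2.3.3 and numpy 2.4.6 under Python 3.11.15.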

Additional observations from a re-analysis of the deposited data

Results flagged for a closer look

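In 6 of 128 groups tested, 1 library stood apart from the other 3 by the criterion of Dixon for 4 values, where chance gives about 1 in 20 groups, or 6.4 here. Atp5b was at 1096 FPKM in HFD-post 1 against 928 to 952 FPKM in the others, Cox4i1 at 547 FPKM against 472 to 481 FPKM and Uqcrc2 at 217 FPKM against 184 to 187 FPKM in the same library. Uqcr11 was low in CON-post 1 (102 FPKM against 131 to 134 FPKM) and high in HFD-post 4 (168 FPKM against 130 to 131 FPKM). The share of Atp5g2 in the c subunit genes was 2.38% in HFD-pre 2 against 3.19 to 3.29% in the others. HFD-post 1 was also the library in which the members took the largest part of the FPKM, 4.58%.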

How the results depend on the processing

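No member was called at an adjusted p under 0.05 in any of the 14 other fits listed under the processing or the 16 fits without 1 library, in any of the 7 contrasts (fits of only the groups compared were run for the 4 comparisons of 2 groups). With all libraries 0 members were under 0.1 as well. In post against pre over both diets Uqcrq was under 0.1 without CON-pre 3 (adjusted p = 0.0857, limma) and without CON-pre 4 (0.0953), and Cox5a without CON-pre 4 (0.0991) and without HFD-pre 4 (0.0990). At an unadjusted p under 0.05 the count became 2 in HFD-post against HFD-pre, 1 in HFD-post against CON-post, 4 in post against pre over both diets and 1 in HFD against CON over both states. The median of complex II moved by more than the spread between libraries in 3 cases, to 0.11 in HFD-pre against CON-pre when libraries were divided by their FPKM sum, and after quantile normalization to 0.0020 in CON-post against CON-pre and to -0.020 in HFD-post against HFD-pre, where the direction turned only in the latter of these. Over all alternatives the median of the 46 members ranged from -0.03 to 0.11 for HFD-pre against CON-pre, -0.0080 to 0.09 for CON-post against CON-pre, 0.01 to 0.12 for HFD-post against HFD-pre and -0.02 to 0.07 for HFD-post against CON-post, so its sign is not settled in 3 of these 4. Isoform shares moved by less than the spread between libraries when any library was left out.

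Replicate numbers were not taken as pairs. Libraries with the same number had a median correlation of deviations of -0.02 over all genes (24 pairs, -0.22 to 0.213), and 6 of 16 libraries were closest to their own number. Within a state, 2 of 4 same-numbered pairs of CON and HFD libraries had a correlation over 0.1, both before and after exercise, and over the members alone these correlations ran from -0.213 to 0.822 before exercise and from -0.537 to 0.858 after it. Pairs of unlike number ran over the members from -0.837 to 0.376 before exercise (median -0.134) and from -0.7 to 0.688 after it (median -0.29). Numbers 2 and 4 before exercise (0.737 and 0.822) and number 4 after it (0.858) thus lay above all pairs of unlike number. With 1 replicate block for each number, 0 members were called in each contrast. A replicate block within each state, added after seeing the data, called 0 members in HFD-pre against CON-pre, HFD-post against CON-post, HFD against CON over both states and the interaction. In the exercise comparisons the same fit called 1 member on CON (Cox5a, adjusted p = 0.0470, limma), 1 on HFD (Cox5a, 0.0364) and 4 over both diets (Cox5a, 0.00311, Atp5e, 0.0256, Atp5l, 0.0338, and Cox5b, 0.0454), beside 1.57, 1.15 and 6.46% of all genes (2.17, 2.17 and 8.70% of the members). Pre and post libraries share no block in that fit, so its error leaves out the spread between numbers that an exercise comparison has to be set against, and these p-values are too small. FPKM does not give the reads behind a value, intervals rest on 4 libraries a group, and those of Atp5l, Cox4i2, Cox5a, Atp5h, Cox5b and Atp5e were the widest among the members.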
